A study of Homo sapiens with 6 samples.

Results

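The dense run of accessible sites on the short arm of chromosome 9 was described here outside the neighbourhood of JAK2. Its members were all peaks with a summit on hg19 chromosome 9 between 2.0 and 20.3 Mb, without the 820 kb from 4.78 to 5.6 Mb. That rule gave 7041 of the 112610 peaks of the shHMGA1 list and 7331 of the 127153 peaks of the control list, over 17.48 Mb. The segment had been chosen by the number of peaks per length in these same lists, so its density, spacing and levels are given as a description and support nothing.

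Per the sample labels the cells were DAMI, a human leukaemia line, that carried lentiviral short hairpin RNA against HMGA1 (shHMGA1, 3 samples) or a control lentivirus (control, 3 samples). The assay was ATAC-seq, where Tn5 transposase inserts adapters into open DNA, here with 2 µl of Tn5 on 50000 cells for 45 min at 37 °C. The data were 1 peak list per group, so differences between the groups could not be set against replicates and carry no p-value. The series' design text also names a second line, SET-2, and whether libraries of that line entered the lists is not given. Read depth is unknown, and neither the knockdown of HMGA1 nor the identity of the cell line can be checked from peak lists.

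HMGA1 is a small architectural protein that binds AT-rich DNA in the minor groove and alters how chromatin folds. Open chromatin in most cells is punctuated: promoters and enhancers stand out as short accessible sites in long closed stretches. The short arm of chromosome 9 is known in leukaemia and myeloproliferative neoplasms for JAK2, the kinase gene in band 9p24.1, whose immediate surroundings were left out here. From the telomere inward, the segment runs through bands that hold SMARCA2, an ATPase of the SWI/SNF chromatin remodelling complex (9p24.3), and RFX3 and GLIS3, which encode transcription factors (9p24.2). Next come the cytokine gene IL33 and the histone demethylase gene KDM4C (9p24.1), the very long receptor phosphatase gene PTPRD (9p24.1 to 9p23), the transcription factor gene NFIB (9p23 to 9p22.3) and PSIP1, whose product tethers proteins to chromatin (9p22.3). The lipid droplet gene PLIN2 and the ribosomal protein gene RPS6 lie in 9p22.1. The RefSeq name table, on GRCh38, gave all 27 genes listed for the segment in this order along the arm. No gene positions on hg19 were at hand, so no peak below is assigned to a gene, a promoter or an exon, and no sequence of a site is printed.

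Peaks lay over more than 50% of the bases of the segment. In shHMGA1 cells 55.9% of its bases were under a peak (9.77 Mb), and in control cells 57.8% (10.1 Mb). The comparison interval, chromosome 9 from 25700001 to 38000000, holds TEK, the angiopoietin receptor gene, and PAX5, the B cell transcription factor gene. There 7.52% of bases in shHMGA1 cells and 7.66% in control cells were under a peak. Peak density was 403 per Mb in the segment and 76.8 per Mb in the comparison interval in the shHMGA1 list, a ratio of 5.24. In the control list it was 419 and 80.9 per Mb, a ratio of 5.18. The segment makes up 0.576% of chromosomes 1 to 22 and X. It held 6.25% of the peaks and 11.9% of the peak bases of the shHMGA1 list, and 5.77% and 11.2% of those of the control list. The lists hold no read counts and no measure of DNA content, so a stretch that is more open and a stretch with more template DNA cannot be told apart.

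The comparison interval was itself uneven. Its first 1.3 Mb, up to 27 Mb, had 351 peaks per Mb in the shHMGA1 list and 352 in the control list, and 31.5 to 32.7 Mb had 183 and 205. The remaining 9.8 Mb had 27.6 and 29.7 peaks per Mb. Against that remainder alone, which was set apart after the counts were seen, the segment was 14.6 times as dense in the shHMGA1 list and 14.1 times in the control list. Outside the 9p run and a dense run on 4q, chromosomes 1 to 22 and X had 31.2 peaks per Mb in the shHMGA1 list and 35.6 in the control list. The 2 Mb on the telomere side of the segment had 16 peaks per Mb in shHMGA1 and 27 in control.

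The ends of the segment did not sit on edges of the profile. The 100 kb just inside the left end held 10 shHMGA1 and 17 control peaks, and the 100 kb just outside it 12 and 19. At the right end the 100 kb inside held 48 peaks in each list and the 100 kb outside 51 and 56. Beside the left-out interval, the last 80 kb before it held 43 shHMGA1 and 42 control peaks, and the first 100 kb after it 41 and 43. The left-out interval itself held 298 shHMGA1 and 339 control peaks and was more fully covered than the segment, at 78.1% and 73.9% of bases.

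In 100-kb bins the segment had no empty bin. Over 174 full bins the count per bin had a median of 42 and a range of 7 to 61 in the shHMGA1 list, and a median of 43.5 and a range of 9 to 61 in the control list. In the comparison interval the median was 3 in each list, and 16 of 123 bins in the shHMGA1 list and 14 in the control list were empty. The share of bases under a peak ran from 5.14% to 94.3% per bin in the shHMGA1 list (median 61.8%) and from 3.63% to 93.6% in the control list (median 63.7%). It was over 50% in 110 shHMGA1 bins and 117 control bins. The number of peaks was a poor guide to that share: across bins of 1 list, Spearman's rho between the 2 quantities was 0.27 in the shHMGA1 list and 0.13 in the control list. The median summit significance of the peaks in a bin followed the covered share more closely, with rho of 0.87 in shHMGA1 and 0.89 in control. These are descriptions over neighbouring bins that share libraries and peaks.

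The bin that shows this best lay at 5800001 to 5900000 in 9p24.1, where 19 shHMGA1 and 21 control peaks covered the highest share of any bin in either list, 94.3% and 93.6%. By the summed count of both lists, the most filled bin, 16600001 to 16700000 in 9p22.2, held 61 shHMGA1 and 57 control peaks over 66.1% and 67.5% of its bases. It was followed by 8500001 to 8600000 in 9p24.1, with 60 and 57 peaks on only 43.1% and 45.3% of bases. In the control list alone the highest count was 61, at 8400001 to 8500000 in 9p24.1 (52 in shHMGA1). The 5 bins with the lowest summed counts lay in the first 600 kb of the segment, in 9p24.3 and 9p24.2. The lowest were 2300001 to 2400000, with 10 shHMGA1 and 9 control peaks over 5.52% and 3.63% of its bases, and 2400001 to 2500000, with 7 and 12 peaks over 5.14% and 8.85%. In shHMGA1 alone 19800001 to 19900000 in 9p22.1 was also low, with 13 peaks (26 in control).

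The profile was divided into levels with steps between them, a form that the method returns for gradual changes too. Some changes were gradual: in shHMGA1 the covered share of bins from 2600001 to 3000000 rose from 21.9% through 33.9% and 47.6% to 55.9%. When the covered share per bin was divided into levels of at least 5 bins, each list on its own gave 14 levels and 12 steps, and all 12 steps fell in the same 100-kb bin in both lists. This use of covered share was chosen after the counts had been seen, and the lists share most sites, so the match of steps is not independent evidence. Counting peaks in place of bases gave 9 steps in the shHMGA1 list and 7 in the control list (15 and 7 in 50-kb bins). Of the steps in 100-kb bins, 6 lay within 200 kb of a step of the other list and 4 in the same bin, at 4.2, 7.8, 12.2 and 13.8 Mb.

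**Figure D1:**
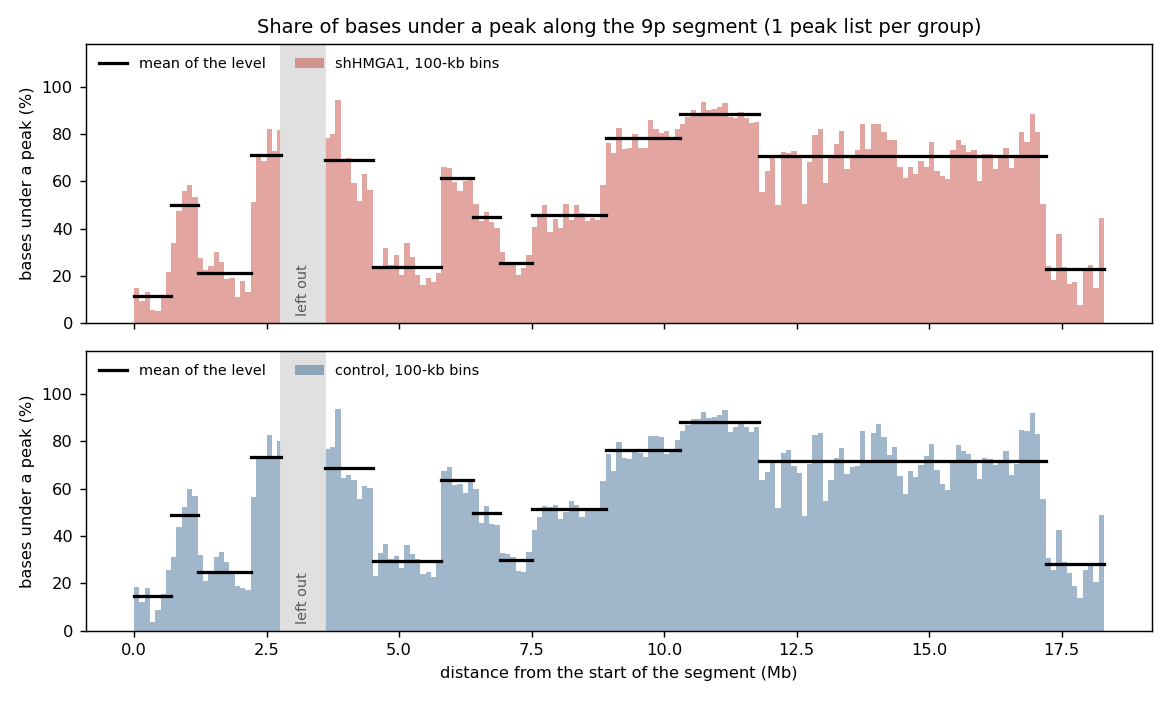
Share of bases under a peak (vertical axis, percent) in 100-kb bins along the segment (horizontal axis, Mb from its start), with shHMGA1 above and control below; bars are bins, black lines the mean of each level, and the grey band the left-out interval. The steps fall in the same 100-kb bins in both lists, though the best edges in 10-kb bins lie up to 120 kb apart. The highest level reaches 88.5% in shHMGA1 and 88.0% in control.

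From the telomere inward the covered share was 11.5% in shHMGA1 and 14.6% in control from 2.0 to 2.7 Mb, and it then stood at 49.8% and 48.8% as far as 3.2 Mb. From 3.2 to 4.2 Mb it was 21.1% and 24.9%. The stretch from 4.2 Mb to the left-out interval had 70.9% and 72.9%, and the stretch just after that interval, to 6.5 Mb, had 69.2% and 68.8%. Both sides of the left-out interval were therefore high, between sparse stretches at 3.2 to 4.2 Mb and at 6.5 to 7.8 Mb (23.8% in shHMGA1 and 29.3% in control).

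Beyond 7.8 Mb the covered share came down from level to level. It was 61.5% in shHMGA1 and 63.7% in control to 8.4 Mb, 44.8% and 49.6% to 8.9 Mb, and 25.4% and 30% to 9.5 Mb. These levels lie in 9p24.1 and 9p23, the bands to which PTPRD is assigned. It then climbed again. The levels were 45.8% and 51.4% to 10.9 Mb, 78.3% and 76.3% to 12.3 Mb, and 88.5% and 88.0% from 12.3 to 13.8 Mb, the top of the whole segment. The longest level ran from 13.8 to 19.2 Mb at 70.7% in shHMGA1 and 71.6% in control, through 9p22.3, 9p22.2 and into 9p22.1. The last, from 19.2 to 20.3 Mb, had 23.1% and 28.1%.

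Several steps were sharp on a finer scale. In 10-kb bins within 200 kb of each step, the best single edge fell in the same bin in both lists for 7 of the 12 steps, and within 20 kb for 8. At 4230000 in 9p24.2 the 50 kb before the edge were 12.4% covered in shHMGA1 and 12.7% in control, and the 50 kb after it 68.9% and 75.1%. At 6460000 in 9p24.1 the values were 78.7% and 82.6% before and 23.2% and 23% after. At 7780000 in 9p24.1 they were 10.5% and 24.3% before and 65.5% and 65.7% after. The edges found at 12300000 and 8900000 lay 120 and 110 kb apart between lists.

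The most covered level had few, wide peaks. From 12.3 to 13.8 Mb there were 478 shHMGA1 and 492 control peaks, 31.9 and 32.8 per 100 kb. Their median width was 1905 bp in shHMGA1 and 1967.5 bp in control, and the median gap from the end of a peak to the start of the next was 220 and 226 bp. From 13.8 to 19.2 Mb there were more and narrower peaks, 46.8 per 100 kb in shHMGA1 and 46.5 in control, with median widths of 1104 and 1076 bp and gaps of 362 and 361 bp. In the sparse level from 6.5 to 7.8 Mb the count was 29.3 and 35.1 per 100 kb, nearly that of the most covered level. The peaks there had median widths of only 655 bp in shHMGA1 and 708.5 bp in control, and gaps of 1527 and 1155 bp.

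Segment peaks were wider than those of the whole lists. Median width in the segment was 930 bp in shHMGA1 (quartiles 561 and 1611) and 913 bp in control (quartiles 555 and 1631.5). In the comparison interval it was 682 and 677 bp, and over the whole lists 539 and 525 bp. Peaks of at least 3 kb numbered 634 in the shHMGA1 list (9.0% of segment peaks) and 671 in the control list (9.15%). The whole-list shares were 1.29% and 1.22%. Other densely covered stretches had wide peaks too. In the left-out interval the median width was 1281 bp in shHMGA1 and 1151 bp in control, with 19.8% and 17.7% of peaks at least 3 kb wide. From 25.7 to 27 Mb in the comparison interval it was 967 and 874 bp, with 7.68% and 7.86%. Peaks of at least 5 kb, 209 in shHMGA1 and 214 in control, made up 2.97% and 2.92% of segment peaks and 15.7% and 15.6% of the covered bases. Over the whole lists they made up 0.306% and 0.278% of peaks and 3.31% and 3.00% of covered bases. In the comparison interval they were 0.952% and 1.01% of peaks.

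The widest peaks differed between the lists in where they were broken. The widest shHMGA1 peak ran from 5873110 to 5900005 in 9p24.1, 26896 bp, and met 2 control peaks, 1 of them 15236 bp wide from 5873092 to 5888327. At 12622551 to 12642775 in 9p23 the shHMGA1 peak measured 20225 bp and met 3 control peaks. The widest control peak ran from 19005926 to 19022680 in 9p22.1, 16755 bp, and met 5 shHMGA1 peaks. Peaks that met 2 or more peaks of the other list were 15.1% of segment peaks in shHMGA1 and 15.9% in control, against 3.72% and 3.58% in the whole lists.

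Spacing between neighbouring summits had a median of 1913 bp in shHMGA1 (quartiles 1227 and 2962.5) and 1856 bp in control (quartiles 1216 and 2888). Between 25.7 and 38 Mb the medians were 2962 and 2895.5 bp, with upper quartiles of 8298 and 7953 bp. The widest distance between neighbouring summits of the segment was 41925 bp in shHMGA1 and 43358 bp in control. The comparison interval reached 328131 and 319633 bp. The median gap between peak edges was 498 bp in shHMGA1 and 495 bp in control in the segment, and 1494 and 1683.5 bp in the comparison interval.

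The peaks of the segment were somewhat weaker in significance than the lists as a whole. The summit value of a peak is the −log10 p given by the authors' peak caller, not adjusted for multiple testing. It had a median of 4.88 in shHMGA1 and 5.05 in control in the segment, against 5.22 and 5.25 in the whole lists. Each whole list was divided into 10 equal parts by this value (deciles). The most significant decile, by construction 10.0% of each list, held 3.82% of segment peaks in shHMGA1 (269) and 4.47% in control (328).

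The excess of peaks was therefore uneven over the deciles. In the weakest decile the segment held 52.6 shHMGA1 and 42.8 control peaks per Mb, against 2.73 and 3.24 per Mb on chromosomes 1 to 22 and X outside the dense runs, ratios of 19.3 and 13.2. In the fifth decile the ratios were 16.9 in shHMGA1 and 14.5 in control, in the eighth 10.2 and 11.3, and in the most significant decile 4.37 and 4.73. Against the comparison interval, the ratio was 5.30 in shHMGA1 and 4.54 in control in the weakest decile and 2.63 and 2.81 in the most significant one. Within each decile segment peaks were wide for their significance: in the most significant decile their median width was 3038 bp in shHMGA1 and 2845.5 bp in control, against 1404 and 1397 bp over the whole lists.

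**Figure D2:**
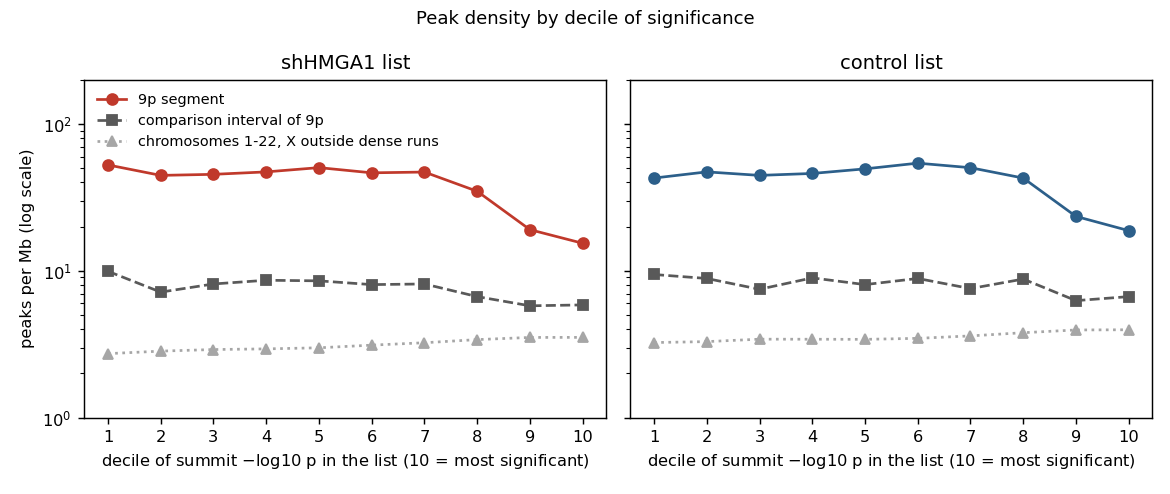
Peaks per Mb (log scale) against the decile of summit −log10 p within each whole list (10 is the most significant), for shHMGA1 on the left and control on the right; circles are the segment, squares the comparison interval and triangles chromosomes 1 to 22 and X outside the dense runs. The segment lies highest in every decile and comes down to 15.4 peaks per Mb in shHMGA1 and 18.8 in control in the most significant one.

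The area under the significance curve, the signal column of the lists, grows with width, so it was divided by the width of the peak. This area per base had a median of 1.02 in shHMGA1 (quartiles 0.73 and 1.45) and 1.07 in control (quartiles 0.77 and 1.55) in the segment. The comparison interval had medians of 1.14 and 1.18, and over the whole lists 1.4 and 1.41. Among the levels it was highest from 12.3 to 13.8 Mb, with medians of 1.62 in shHMGA1 and 1.72 in control. The lowest medians were 0.74 from 3.2 to 4.2 Mb in shHMGA1 (0.81 in control) and 0.76 from 8.9 to 9.5 Mb in control (0.76 in shHMGA1). By width, the median was lowest for peaks of 500 to 1000 bp, 0.81 in shHMGA1 and 0.87 in control, and highest for peaks of at least 5 kb, 1.97 and 2.07. Peaks under 500 bp had 0.86 and 0.90. These values depend on depth and are compared here only within a list.

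The segment also held very strong sites. Among the 100 most significant peaks of each whole list, 14 in shHMGA1 and 15 in control lay in it. Among the 1000 most significant, 63 and 65 did, near the 6.25% and 5.77% of all peaks that the segment held. The 10 most significant segment sites of a list overlapped a site of the other list's 10 in 9 cases. The first in both lists lay in 9p24.1, with its summit at 5629059: a peak from 5622459 to 5630886 in shHMGA1 (−log10 p 32, rank 38 in its list) and from 5625231 to 5630802 in control (33.0, rank 34). The second lay in 9p23, from 11063102 to 11067197 in shHMGA1 (30.8) and from 11062912 to 11067202 in control (31.4). In 9p23 a further site had its summit at 12776520 in both lists, with 30.6 in shHMGA1 and 29.9 in control.

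The other leading sites were spread over 9p24.1, 9p22.3 and 9p22.1. In 9p22.1 the sites with summits at 19049304 and 19103030 had values of 29.7 and 28.1 in shHMGA1 and 30.2 and 28.7 in control, with the same summit base in both lists. In 9p22.3 the peaks from 15420581 to 15424433, 15543156 to 15556359 and 15304097 to 15309855 in shHMGA1 had values of 29.9, 28.4 and 27.4. Their control partners began at 15420570, 15547188 and 15304339 and had 29.7, 28.4 and 28.6. In 9p24.1 the peak with its summit at 4741283 had 29.1 in shHMGA1 and 29.4 in control, and the peak from 4678623 to 4681640 in shHMGA1 had 27.6, against 28.4 for its control partner. The site at 14319961 to 14324703 in 9p22.3, with 28.6 in control, was among the first 10 in the control list only, and its strongest shHMGA1 partner had 27.3 at rank 82.

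Ranked by area per base within each list, other sites led. The first place in both rankings went to a site in 9p24.1 under 3 kb wide, with 12.4 per base in shHMGA1 (6006491 to 6009114) and 12.4 in control (6006462 to 6009298). The second place, also in 9p24.1, had 10.3 in the shHMGA1 list (6680439 to 6682668) and 10.2 in the control list (6680454 to 6682652). That site stood in the sparse level from 6.5 to 7.8 Mb, as did the third in shHMGA1, from 6756379 to 6759545 (9.04). Sites of the most significant decile numbered 13.1 per Mb in shHMGA1 and 17.7 in control in that sparse level, and 1.67 and 0 per Mb in the sparse level from 8.9 to 9.5 Mb. From 12.3 to 13.8 Mb they numbered 24.7 and 28.0, and from 5.6 to 6.5 Mb 27.8 and 35.6.

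By chromosome band, 9p22.2 had the highest density in both lists, 501 peaks per Mb in shHMGA1 and 494 in control, and 9p22.3 the highest covered share, 73.1% and 72.1%. The Giemsa-dark band 9p23 had 409 and 430 peaks per Mb and a covered share of 65.9% and 67.5%. In 9p24.1, a Giemsa-negative band, the part outside the left-out interval had 414 and 433 peaks per Mb, but a covered share of only 47.3% and 50.3%. Band 9p22.3 also had the most sites of the most significant decile among bands with at least 1 Mb in the segment, 28.7 per Mb in shHMGA1 and 32.1 in control, and its neighbour 9p22.2 had 9.47 and 11.6, the fewest among those bands in control and the fewest after 9p24.2 in shHMGA1.

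The number of peaks in the segment was nearly equal in the 2 groups. With 7041 shHMGA1 and 7331 control peaks the ratio was 0.960 (95% interval 0.929 to 0.993 from counts taken as independent), against 0.886 for the whole lists. At or above the joined median summit value of 5.24 the segment held 2802 shHMGA1 and 3341 control peaks, a ratio of 0.839. Its interval, 0.797 to 0.882, takes in the whole-list ratio of 0.873. With the 56305 most significant peaks of each list, the whole-list ratio is 1 by construction. The segment ratio there was 1.03, with an interval of 0.975 to 1.08 that takes in 1. The weakest decile of the segment had 919 shHMGA1 and 748 control peaks. Read depth per group, which moves the number of weak peaks, is unknown, and its part in these ratios was not tested.

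Covered share was lower in shHMGA1 in 119 of 174 bins and higher in 55, with a median difference, shHMGA1 minus control, of -1.68 percentage points and a range of -13.7 to 7.70. The whole lists differed more: the ratio of covered bases, shHMGA1 over control, was 0.966 in the segment and 0.909 over the whole lists. The ratio of peak numbers was lower in sparse than in covered levels. The 5 levels under 35% covered in control held 1292 shHMGA1 and 1526 control peaks, a ratio of 0.847 (interval 0.786 to 0.912). The 9 levels over 40% covered held 5749 and 5805, a ratio of 0.990 (interval 0.955 to 1.03). The ratio was 0.886 for the whole lists and 0.877 on chromosomes 1 to 22 and X outside the dense runs. Both values lie within the interval of the sparse levels and below that of the covered levels. Single sparse levels had ratios from 0.781 (2.0 to 2.7 Mb, 100 and 128 peaks) to 0.875 (8.9 to 9.5 Mb, 217 and 248), and single covered levels from 0.934 (9.5 to 10.9 Mb) to 1.05 (7.8 to 8.4 Mb). This grouping was made after the values were seen, and with 1 list per group the difference was not tested. At or above the joined median value both ratios were lower, 0.704 and 0.856. With the 56305 most significant peaks of each list they were 0.923 (interval 0.778 to 1.095) and 1.04 (interval 0.983 to 1.10). The ratio of the covered levels thus passed 1, but both intervals take in 1.

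In 3478 places a single shHMGA1 peak met a single control peak. Of these pairs, 46.3% were wider in shHMGA1 (exact interval 44.6 to 47.9), near the 44.8% of the whole lists, with a median log2 width ratio, shHMGA1 over control, of -0.02. The comparison interval had 608 such pairs, 52% of them wider in shHMGA1 (47.9 to 56.0). Paired summits lay further apart in the segment than elsewhere: they were within 50 bp of each other in 48.8% of segment pairs, 65.6% of comparison pairs and 73.5% of all pairs. Segment peaks were also wider, and the part of width in this was not tested. The pairs took in 3478 of 7041 shHMGA1 peaks of the segment, and 83581 of 112610 of the whole list.

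Unshared peaks were rarer in the segment than in the lists as a whole. Without an overlapping base in the other list were 571 shHMGA1 peaks, 8.11% of segment peaks (exact interval 7.48 to 8.77), against 14.8% of the whole shHMGA1 list. In control they were 979, 13.4% (12.6 to 14.2), against 24.9% of the whole control list. The comparison interval had shares of 13.0% and 17.6%. The shares of the segment hung on the rule for overlap. With a reciprocal overlap of 50% asked for, 37.5% of shHMGA1 and 39.9% of control segment peaks were unshared. Among the 56305 most significant peaks of each list the shares were 14.1% in shHMGA1 and 13.7% in control, so control was no longer the higher. Whole-list shares were not taken under these other rules. The lower share in the segment is therefore shown only for an overlap of at least 1 bp between the full lists. Where the other list covers over 50% of bases, a peak meets another more easily, and how much of the low share this gives was not tested. Of all unshared segment peaks 63.2% were control peaks (exact interval 60.7 to 65.6), near the 65.5% of the whole lists.

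The unshared peaks were weak and narrow. In the weakest decile 26.8% of shHMGA1 and 42.0% of control segment peaks were unshared, and in the fifth decile 2.04% and 4.63%. The whole-list values were 43.8% and 61.3% in the weakest and 12.0% and 26.1% in the fifth. From the seventh decile up no shHMGA1 segment peak was unshared (0 of 822 in the seventh, which allows a share of up to 0.365%, and 0 of 269 in the most significant, up to 1.12%), and in control the last was a single peak of the eighth. Median width was 469 bp for unshared and 1011 bp for shared peaks in shHMGA1, and 488 and 1043 bp in control. Many had a peak of the other list close by: the median distance was 443 bp from shHMGA1 peaks and 554 bp from control peaks, and 53.6% and 46.4% lay within 500 bp of one. In the comparison interval 29.3% and 22.3% did. The median gap between peak edges in the segment was itself 498 bp in shHMGA1 and 495 bp in control, against 1494 and 1683.5 bp in the comparison interval. How much of the nearness this density gives was not tested.

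**Figure D3:**
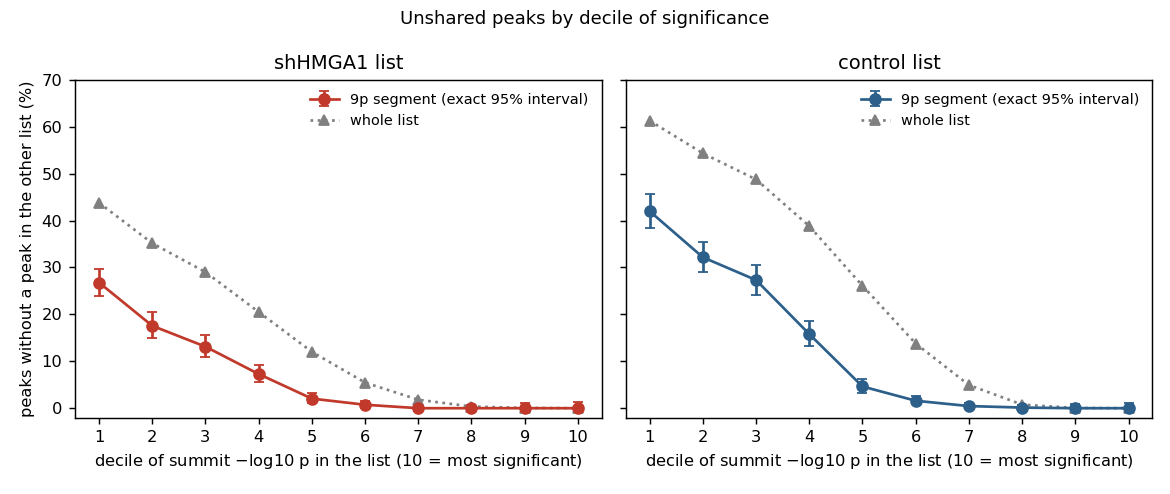
Share of peaks without an overlapping peak in the other list (vertical axis, percent) against the decile of summit −log10 p within each whole list, for shHMGA1 on the left and control on the right; circles are the segment with exact 95% intervals and triangles the whole list. The segment lies below the whole list in each of the 6 weakest deciles, at 26.8% against 43.8% in shHMGA1 and 42.0% against 61.3% in control in the weakest.

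Unshared peaks made up a larger share of all peaks in the sparse levels. There the other list also covers fewer bases, and the part of this in the shares was not tested. In the 5 levels under 35% covered, 18.2% of shHMGA1 peaks (235) and 31.3% of control peaks (478) were unshared, and in the 9 levels over 40% covered 5.84% (336) and 8.63% (501). The sparse levels held 235 of 571 unshared shHMGA1 and 478 of 979 unshared control peaks on 4.7 of 17.48 Mb. The lowest shares were those of the most covered level, from 12.3 to 13.8 Mb, with 2.09% in shHMGA1 (10 peaks) and 1.22% in control (6 peaks). The highest were those of the first level, from 2.0 to 2.7 Mb, with 21% (21 peaks) and 39.8% (51 peaks). The 20 bins picked for having the most unshared peaks of a list held 29.6% of the unshared and 10.9% of all peaks of the 174 full bins in shHMGA1, and 28.2% and 11% in control, a description in which the choice of bins fixes a high share.

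**Figure D4:**
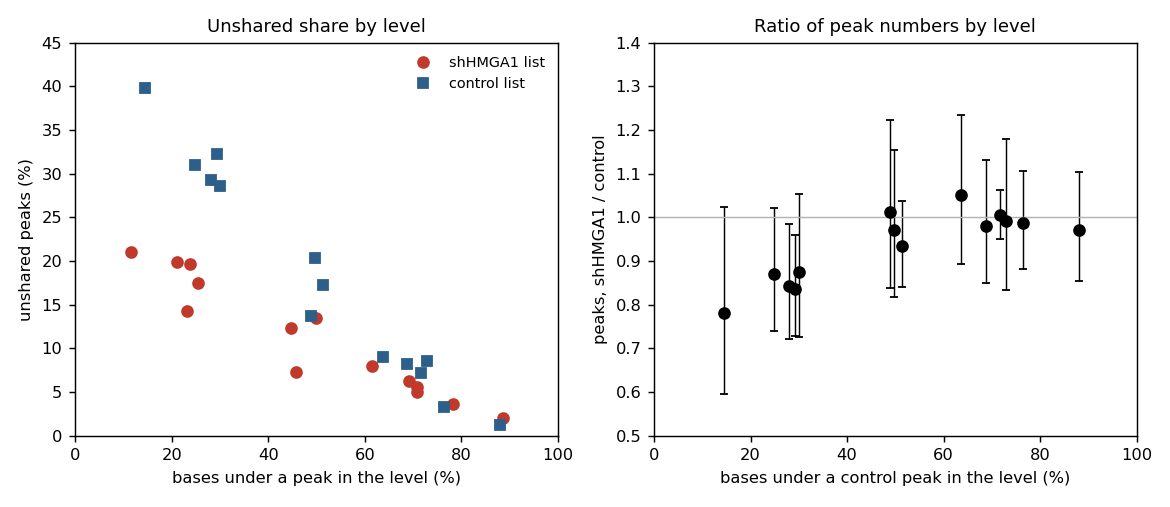
Left, share of unshared peaks (percent) against the share of bases under a peak (percent) in each of 14 levels, circles for shHMGA1 and squares for control; right, peak numbers in shHMGA1 divided by control against the share covered in control, with 95% intervals that treat the lists as independent counts. The 5 sparse levels lie between ratios of 0.781 and 0.875 and have the highest shares of unshared control peaks. The ratio for the whole lists is 0.886.

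The bin with the most unshared peaks was 7400001 to 7500000 in 9p24.1, with 8 shHMGA1-only and 17 control-only peaks. It was followed by 8700001 to 8800000 in the same band (10 and 12), 3400001 to 3500000 (8 and 13) and 3900001 to 4000000 (7 and 14) in 9p24.2, and 6600001 to 6700000 in 9p24.1 (5 and 16). The last 3 tied, at 21 unshared peaks each, with 7300001 to 7400000 in 9p24.1 (5 and 16) and 9000001 to 9100000 in 9p23 (7 and 14). The longest runs of neighbouring unshared control peaks had 6 members, at 3940519 to 3959349 in 9p24.2, 7725437 to 7754444 in 9p24.1 and 19810937 to 19840479 in 9p22.1. Unshared shHMGA1 peaks ran to 4 in a row, at 8586856 to 8598425 in 9p24.1 and 15045640 to 15052128 in 9p22.3. Band 9p22.3 was the only one with fewer control-only than shHMGA1-only peaks, 72 in shHMGA1 and 68 in control.

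No single unshared site was strong. The most significant shHMGA1-only peak lay at 7030247 to 7030646 in 9p24.1, 400 bp wide with a summit value of 5.70, 621 bp from a control peak and at rank 47408 of its list. The next were at 15063788 to 15064013 and 15566204 to 15566586 in 9p22.3 (5.62 and 5.58) and at 13228372 to 13228716 and 11190095 to 11190252 in 9p23 (5.43 and 5.39). The most significant control-only peak lay at 19403239 to 19404043 in 9p22.1, 805 bp wide with a summit value of 7.05 and only 181 bp from an shHMGA1 peak, at rank 34437. It was followed by 2132586 to 2132798 in 9p24.3 (6.30), 9863982 to 9864833 in 9p23 (6.18), 2666630 to 2667401 in 9p24.2 (6.11) and 20250387 to 20251184 in 9p21.3 (5.92).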

How the data were processed

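Per the submitters' processing notes, peaks were called with Genrich on hg19; no source used here gives its version, its settings, an aligner or how 3 samples became 1 list. The name of a list told its group. The authors' deposited lists hold positions, a summit −log10 p, a signal column (area under the significance curve, smallest value just above 200.0 in each list) and a score that follows from area and width; the q-value column is -1 throughout.

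From the lists, peaks were placed by summit, and the lists compared by overlap of at least 1 bp. Levels were found by optimal partition of 100-kb bins (square root of counts, or percent of bases covered), with a penalty of 3 times the natural log of the number of bins and at least 5 bins per level. The step finder was tested on simulated peak counts, where it found 124 of 140 planted steps and 3 extra ones over 20 runs. It was not tested on covered shares. The overlap calls were tested on a list simulated from the control list, with 0 of 127153 peaks given a wrong state. Shares have exact Clopper-Pearson 95% intervals and zero counts a limit of 3 counts, for counting error only; neighbouring peaks are not independent. Bands came from the circlize band table, whose chromosome 9 end equals that of hg19. The members and lists were chosen with earlier results of these data known. Named sites were the 10 highest summits, 5 highest areas per base and 5 strongest unshared peaks per list, and the 5 most and least filled bins and 5 with most unshared peaks. The 3 widest peaks per list and the bin at 5800001 were chosen after their values were seen. Software was scipy 1.17.1, matplotlib 3.10.9, pandas 2.3.3 and numpy 2.4.6 under Python 3.11.15. Alternatives were stricter and equal-sized lists, merging, other overlap rules, other bins and penalties, and other comparison regions.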

Additional observations from a re-analysis of the deposited data

How the results depend on the processing

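Of the values under other settings, 38 moved, 3 crossed a ratio of 1 and 27 did neither. Peak and step numbers were held to 1.5 times, and every other value to its own 95% interval, so small shifts of medians and ratios count as moved. Placing peaks by midpoint, keeping the left-out interval in and dropping 300 kb at each end moved neither peak number by 1.5 times and left the ratio within its interval. At or above the joined median, the segment held 2802 shHMGA1 and 3341 control peaks (ratio 0.839; sparse levels 0.704, other levels 0.856). There the density ratio to the comparison interval was 4.68 in shHMGA1, median widths were 1682.5 and 1598 bp, spacings 4067 and 3546 bp, and areas per base 1.56 and 1.59. Taking the 56305 most significant peaks of either list, the segment held 2844 and 2768 peaks. Their ratio turned to 1.03 (sparse levels 0.923, other levels 1.04), each with an interval that takes in 1. Density ratios were 4.72 and 4.74, and the unshared share in shHMGA1 was 14.1%. Lists of equal size remove the difference in list length by construction. Merging peaks within 150 bp gave density ratios of 4.73 and 4.60, widths of 1092 and 1094 bp, spacings of 2416 and 2367 bp, and a ratio of 1.00 in the other levels. A reciprocal overlap of 50% left 37.5% of shHMGA1 and 39.9% of control peaks unshared, a distance of 500 bp 3.76% and 7.16%, and filtering only the counted list 0.178% and 0.599%. These are shares of segment peaks, and whole-list shares under the same rules were not taken. Bins of 50 kb gave 15 steps in shHMGA1, and covered share gave 12 in control. Density ratios were 12.9 and 11.8 against chromosomes 1 to 22 and X outside the dense runs, and 14.6 and 14.1 against the remainder of the comparison interval. Summed area over summed width was 1.53 and 1.64. Beyond what these settings change by construction, the cause was not tested. The alternatives on covered share, the remainder, summed area and level groups were chosen after seeing the data. No paired analysis was possible because the lists hold no values of single samples, nor could replicates be dropped 1 at a time. Unknown depth limits every count of weak peaks.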
